A study of Mus musculus with 143 samples.

Results

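The regions described here are 3808 sites of phosphorylated RNA polymerase II (Pol II) that were found both in oocytes of juvenile mice at postnatal day 20 (p20) and in fully grown adult oocytes. They were chosen from the peak list of p20 control library 1. A peak on chromosomes 1 to 19 was kept if it overlapped, by 1 base or more, a peak in p20 control libraries 2 and 3 and a peak in at least 2 of the 3 adult control libraries. Of 71337 autosomal peaks in that list, 5.34% met the rule and are called shared peaks. A comparison set of 4376 p20-only peaks was in all 3 p20 control lists and in no adult control list. Since the rule used the control Pol II lists, the signal, width and recurrence of shared peaks in those lists are given as descriptions without tests.

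Pol II was profiled by CUT&Tag, in which an antibody directs a transposase to cut and tag chromatin, on pooled mouse oocytes with 3 libraries per group. The groups were p20 control, adult control and adult Dis3 conditional knockout (cKO), the adult oocytes being at the germinal vesicle (GV) stage, arrested in prophase with an intact nucleus. The trimethylated histone H3K27me3 was profiled in the same way, with 3 libraries each from p20 control, p20 double knockout of Dis3 and Exosc10 (dcKO), adult control and adult Dis3 cKO. RNA of single oocytes was sequenced after removal of ribosomal RNA (RiboMinus, 8 libraries each of adult control, adult Dis3 cKO, p20 control, p20 Dis3 cKO, p20 Exosc10 cKO and p20 dcKO) and by poly(A) capture (GV stage with no age given, 8 control and 15 Dis3 cKO libraries). Poly(A) libraries of cultured oocytes and of metaphase II eggs, control and Dis3 cKO, are not described here. They entered the same fit as the GV libraries, 71 poly(A) libraries in all. Mutants came from mice made by CRISPR/Cas9 per the labels. The driver of the conditional deletion, the strain, the age of the adults and the genotype of the controls beyond that word are not given in the sources used here. The labels do not say which libraries came from separate animals, so p-values measure only the spread between libraries. IgG libraries were not analysed here.

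Pol II carries a repeated tail that is phosphorylated as transcription starts and proceeds, with serine 5 marked early and serine 2 marked along the gene body towards the 3′ end. The library titles name both residues in shorthand. Growing oocytes transcribe actively and store RNA, and transcription falls silent as they reach full size. The nuclear RNA exosome degrades and trims RNA, with DIS3 and EXOSC10 as its catalytic subunits, and H3K27me3 is the repressive mark laid down by Polycomb repressive complex 2.

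Shared peaks rarely lay at annotated start sites. RefSeq start sites were at hand for 18 of the 19 autosomes, and 89 of the 3677 shared peaks on them covered one, which is 2.42%, against 1.36% of p20-only peaks and 1.28% of all peaks in the list. Shared peaks are wider, and by midpoints within 500 bases of a start the shares were 1.82%, 1.74% and 1.79%, so no excess was left. RefSeq promoter windows of the GRCm38.p6 assembly (mm10), from 250 bases before to 50 bases after the start, matched 102 start sites of 94 genes. The 4 windows printed here, each wholly within a shared peak found in all 3 adult control lists, show how different these few sites were in sequence. Capitals mark any match, on either strand, to the TATA box letters TATAAA, to the CCAAT box, to the GC box letters GGGCGG, to the homeobox letters TAATTG, to the E-box CACGTG, to the cyclic AMP response letters TGACGTCA or to the motif of the factor ZNF143. A match is a description of letters only. All are written 5′ to 3′ on the strand of the gene, which is the plus strand in each, and they were picked after their values were seen.
Nlrp5, chr7:23403852-23404151: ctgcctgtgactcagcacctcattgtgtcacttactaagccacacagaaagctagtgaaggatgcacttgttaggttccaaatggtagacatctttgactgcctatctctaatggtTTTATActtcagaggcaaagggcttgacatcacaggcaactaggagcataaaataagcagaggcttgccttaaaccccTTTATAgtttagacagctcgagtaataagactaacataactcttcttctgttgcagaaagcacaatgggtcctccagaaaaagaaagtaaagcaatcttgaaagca
Rsl24d1, chr9:73113219-73113518: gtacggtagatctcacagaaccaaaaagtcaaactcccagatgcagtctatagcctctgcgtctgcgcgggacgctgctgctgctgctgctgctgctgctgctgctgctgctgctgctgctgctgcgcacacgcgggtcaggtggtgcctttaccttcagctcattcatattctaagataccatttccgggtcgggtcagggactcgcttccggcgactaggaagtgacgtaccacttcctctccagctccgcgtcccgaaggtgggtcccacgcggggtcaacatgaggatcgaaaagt
Il1r1, chr1:40266336-40266635: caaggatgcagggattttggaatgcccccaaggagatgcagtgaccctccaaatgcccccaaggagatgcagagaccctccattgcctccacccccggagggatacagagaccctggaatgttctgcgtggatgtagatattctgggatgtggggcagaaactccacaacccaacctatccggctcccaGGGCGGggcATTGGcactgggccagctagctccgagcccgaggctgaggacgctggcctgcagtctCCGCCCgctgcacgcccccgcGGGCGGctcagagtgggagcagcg
Srpr, chr9:35210953-35211252: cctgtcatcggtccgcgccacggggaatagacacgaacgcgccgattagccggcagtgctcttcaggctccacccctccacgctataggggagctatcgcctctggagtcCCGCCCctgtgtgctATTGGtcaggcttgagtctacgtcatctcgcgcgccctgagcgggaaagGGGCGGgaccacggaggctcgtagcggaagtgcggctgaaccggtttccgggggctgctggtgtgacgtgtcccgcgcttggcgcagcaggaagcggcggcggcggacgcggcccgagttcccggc

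Nlrp5 encodes a maternal-effect protein of the subcortical complex of the oocyte, and its window held TATAAA letters and 1 CpG. The annotated starts shown for Nlrp5 and Il1r1 are alternative ones that lie inside the gene, well downstream of its 5′ end. Rsl24d1, a factor of ribosome assembly, had 20 CpGs and none of the marked motifs. Il1r1, the receptor of interleukin 1, had 14 CpGs with GGGCGG and CCAAT letters. Srpr, a subunit of the signal recognition particle receptor, shares its peak with the divergent gene Foxred1 and had 36 CpGs. Over the 102 windows, TATAAA was in 7.84% against 13.6% of all 31396 promoters, CCAAT in 42.2% against 37.3% and GGGCGG in 40.2% against 36.0%. CACGTG was in 12.7% against 7.14%, TAATTG in 10.8% against 8.04%, TGACGTCA in 3.92% against 1.83%, and the ZNF143 motif in 1.96% against 1.86%. The looser CANNTG, which also matches every CACGTG, was in 75.5% against 72.2%. The median window had 11 CpGs against 7 in all promoters.

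Instead, shared peaks lay inside genes and towards their 3′ ends. Of the 3808, 84.3% were in a RefSeq gene and 79.3% in a protein-coding gene, against 75.3% and 69.6% of all peaks in the list. For the 2268 shared peaks whose midpoint was within 5000 bases of exactly 1 protein-coding gene, 60.4% of midpoints were in the 3′ 50% of the gene and 28.0% in the 5′ 50%. The shares were 59.1% and 32% for p20-only peaks and 53.3% and 36.8% for all peaks of the list. The 3′-most 10% of the gene held 17.2% and the 5′-most 10% held 2.43%. A further 10.1% lay downstream of the gene and 1.54% upstream. All peaks of the list had a flatter profile, with 11.5% and 4.58% in those end segments. P20-only peaks were between the others in the 3′-most segment, at 15.1%, while in the segment before it they held 14.7% against 13.3% of shared peaks. Downstream lay 6.79% of p20-only peaks and 7.15% of all peaks. No test was made, since peaks of one gene are not independent.

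**Figure D1:**
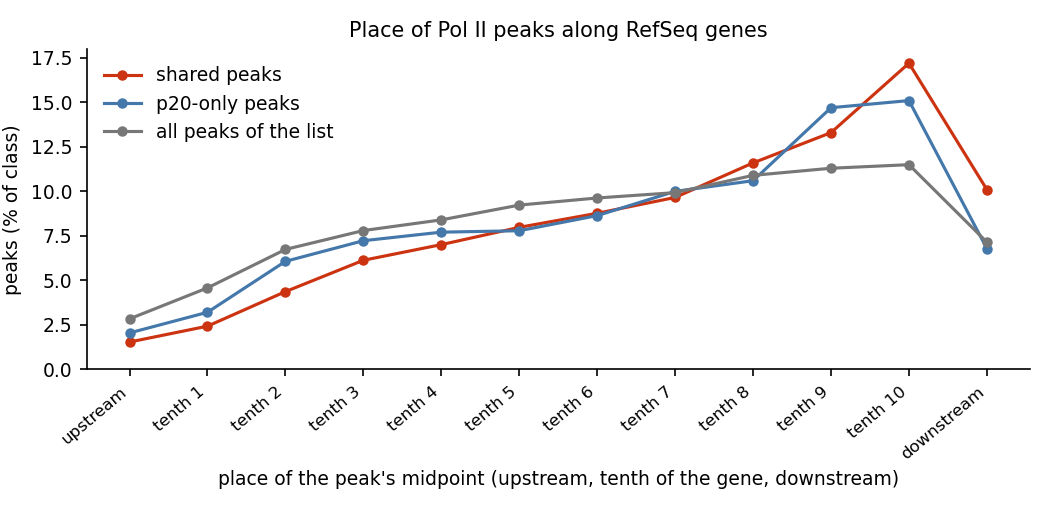
Place of Pol II peaks along protein-coding genes: the y axis is the percent of peaks in a class, the x axis the region upstream, each 10% segment of the gene from its 5′ end, and the region downstream. Shared peaks (red) go from 2.43% in the 5′-most segment to 17.2% in the 3′-most, and all peaks of the list (grey) from 4.58% to 11.5%.

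Shared peaks were wide, strong and clustered. Their median width in p20 control library 1 was 1087 bases, with quartiles of 705 and 1679, while the median of the whole list was 575 bases. They held 16.7% of the total signal of that list, which is the authors' own value for each peak. All of the 100 peaks with the highest signal were shared peaks, as were 730 of the top 1000 and 62 of the 63 peaks wider than 5000 bases. A wide peak meets an overlap rule more easily than a narrow one, so width and recurrence are linked here. Shared peaks also sat beside each other: with gaps of up to 5000 bases joined they formed 1930 clusters, and 66.5% of them were in a cluster of 2 or more, against 29.5% of p20-only peaks. Recurrence rose with signal. Among the 762 shared peaks with the lowest signal, up to a total of 4755, 23.2% were in all 3 adult control lists. Among the 762 with the highest, from 20868 upwards, 68.9% were.

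Several of the strongest regions were repeated sequence. A peak of 59948 bases on chromosome 8 (chr8:123564573-123624520) covers a cluster of 5S ribosomal RNA genes and ranked 1, 1 and 2 by signal in the p20 control lists. A neighbouring peak of 26990 bases over more 5S genes ranked 7, 1 and 2. 5S RNA is made by RNA polymerase III, and how reads that fit several places were handled is not given in the sources used here. Among the 12 best-ranked shared peaks, 5 lay in Sfi1 on chromosome 11, and these and the 5S peaks overlapped H3K27me3 peaks in 10 or 11 of 12 libraries. The best-ranked peak at an oocyte gene overlaps part of Padi6, a peptidylarginine deiminase of the oocyte cytoplasmic lattices, and its neighbour Rcc2 (chr4:140722491-140736920). It was 14430 bases wide, ranked 4, 6 and 9 in the p20 control lists and 24, 6 and 4 in the adult control lists, and overlapped H3K27me3 in 2 of 12 libraries. Pik3cd, a lipid kinase subunit, held a peak of 5650 bases that ranked 30, 9 and 10 at p20 and 2, 4 and 5 in adult controls. The lists differ in length, so ranks in different lists show no change.

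The rule has a threshold at 2 adult lists. The strongest peaks just inside it were in Thada, Pisd, Lrpap1 and Myo10, with total signals of 66231, 64346, 57371 and 57154. The strongest just outside it, found in 1 adult list, was an intergenic peak on chromosome 13 with a total signal of 52063, followed by peaks in Celsr1 at 46633 and Trappc9 at 44821.

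Shared peaks touched 1508 genes, of which 1224 were protein-coding, or 5.92% of the 20665 autosomal protein-coding genes. Of these genes 885 had 1 shared peak and 46 had 10 or more. Myo10, an unconventional myosin of filopodia, had the most, with 40 shared peaks over 191.1 kb. It was followed by Myo5b with 32, Zfp618 with 31 and Dnah17, an axonemal dynein heavy chain, with 27. Among oocyte genes, Nlrp5 had 16 in 56.0 kb and Dnmt1, the maintenance DNA methyltransferase, 15 in 52.7 kb. All 31 of these were found in at least 2 Dis3 cKO lists.

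Among the gene lists examined, oocyte genes held shared peaks in the highest proportion. Of 74 autosomal oocyte genes, 17 had one, with 78 shared peaks between them. The best-ranked were Padi6, Tle6, Zbed3, Dnmt1, Nlrp5 and Astl. Tle6 and Nlrp5 encode members of the subcortical maternal complex, and Astl encodes ovastacin, the protease that cleaves the zona pellucida protein ZP2. Zp2 itself had 5 shared peaks and Nlrp14 had 9. By contrast, 0 of 65 replication-dependent histone genes, 0 of 18 small nuclear RNA genes and 0 of 94 Polycomb target genes had one. Ribosomal protein genes had one in 2 of 74, Rpl28 among them. Genes of the Pol II machinery had one in 6 of 60, led by Nelfb, a subunit of the negative elongation factor. Exosome genes had one in 3 of 20, Srrt, Exosc9 and Dis3l, and imprinted genes in 3 of 34. Of 21 granulosa and other somatic markers, Star was the one gene with a shared peak. The lists differ in gene length, which bears on the chance of holding a peak, and were not tested against each other.

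**Figure D2:**
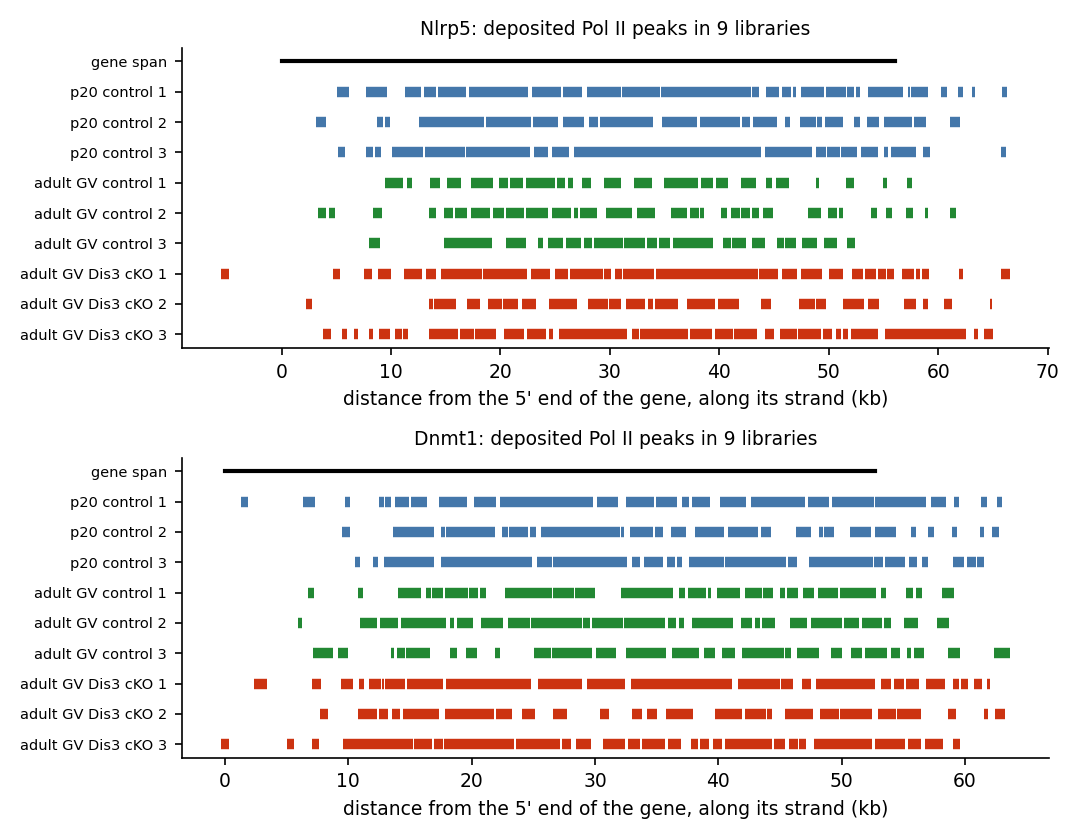
Deposited Pol II peaks over Nlrp5 (top) and Dnmt1 (bottom) in the 9 libraries: the x axis is the distance in kb from the 5′ end of the gene, each row is 1 library, and bars are peaks (blue p20 control, green adult control, red adult Dis3 cKO). In all 9 libraries peaks follow each other along the gene from about 10 kb onwards and few lie near its 5′ end. They run past the 3′ end of the gene in each library except, for Nlrp5, adult control 3.

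Most shared peaks were found again in the adult Dis3 cKO oocytes, whose lists the rule did not use. They were found in 78.5%, 53.9% and 81.7% of cases in Dis3 cKO libraries 1, 2 and 3, a mean of 71.4% ± 15.2 (SD, n = 3). The middle library had the shortest list, with 29298 autosomal peaks against 84842 and 117182, and the 3 adult control lists held 19166, 34825 and 29870. At least 2 of the 3 cKO lists held 76.8% of shared peaks. Of the other 67529 peaks of the reference list 17.5% were so found, and of p20-only peaks 35.0%. All 9 Pol II lists held 864 shared peaks. Recovery rose with signal: the 762 weakest were found in 65.1%, 36.9% and 67.8% of cases, and the 762 strongest in 96.1%, 80.7% and 97.0%.

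**Figure D3:**
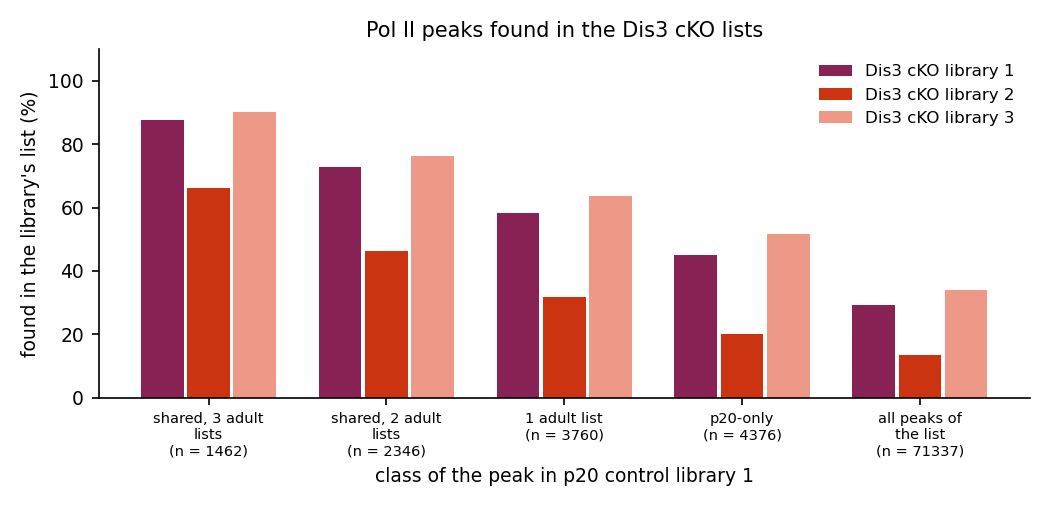
Percent of p20 control library 1 peaks found in each adult Dis3 cKO list, by how often the peak was found in adult controls. Each bar is 1 cKO library. Library 2, with the shortest list, is lowest in each class, and shared peaks in 3 adult lists reach 87.8%, 66.3% and 90.3%.

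List length bears directly on this readout, so the same number of strongest peaks, 19166, was also taken from every adult list. Shared peaks were then redefined without 1 adult control in turn, and that control served as the yardstick. The left-out controls held 62.1%, 66.3% and 61.9% of the peaks, and the cKO libraries between 53.6% and 66.9%. At equal length the cKO lists thus overlapped the range of left-out controls, with library 2 below it. The peak lists do not give a measure of signal that is comparable between libraries, so a change in the amount of Pol II at these sites was not measured.

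In 213 shared peaks (5.59%) no cKO list held a peak, against 26.6% of p20-only peaks and 49.8% of all peaks in the reference list. The best-ranked of them lay in Vac14, Myo10 and Afap1l2, with total signals of 13491, 14685 and 10300 in p20 control library 1. None of these 3 had a peak in adult control library 1, and all had one in controls 2 and 3.

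H3K27me3 seldom lay over shared peaks, and the same held for p20-only peaks. Across the 12 H3K27me3 libraries 71.5% of shared peaks and 75.8% of p20-only peaks overlapped no H3K27me3 peak, and 31 and 27 overlapped one in all 12. In p20 controls 4.02%, 4.96% and 4.81% of shared peaks were overlapped, and in p20 dcKO 5.91%, 7.22% and 9.45%. All 3 dcKO libraries were above all 3 controls (7.53% ± 1.79 against 4.60% ± 0.506, SD, n = 3 each, 2-sided exact permutation p = 0.1, the smallest that 3 against 3 allows). Over all peaks of the reference list the shares were similar, at 4.10%, 4.18% and 4.09% in controls and 5.95%, 7.14% and 7.60% in dcKO, so the rise was not particular to shared peaks. The H3K27me3 lists of dcKO were also longer, with 235005 to 286989 autosomal peaks against 146431 to 154486. With the same number of strongest peaks taken from every list the difference was 0.411 percentage points (exact permutation p = 0.2), in place of 2.93.

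In adult oocytes the controls did not form a tight group. Adult control libraries 1, 2 and 3 had 2.73%, 15.1% and 3.52% of shared peaks overlapped, and Dis3 cKO libraries 4.25%, 3.68% and 3.73%. Control library 2 stood apart from the others. The difference of the means was -3.22 percentage points (cKO minus control, 3.89% ± 0.319 against 7.11% ± 6.91, SD, n = 3 each, exact permutation p = 1.0). Without control library 2 its sign turned, to 0.762 (exact permutation p = 0.1). Adult and p20 controls differed by 2.51 percentage points (exact permutation p = 1.0), and without adult control library 2 by -1.47 (p = 0.1, exact permutation). The adult H3K27me3 lists also differed in length, with 94947, 178429 and 84033 autosomal peaks in controls and 214771 to 264257 in cKO. With the same number of strongest peaks from every list the cKO minus control difference was -3.19 (exact permutation p = 0.1), the smallest p the design allows. Neither comparison can pass 0.05 with 3 libraries a group.

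Compared with p20-only peaks in the same 12 libraries, shared peaks differed by 0.207 percentage points on average (exact sign-flip permutation p = 0.743), being higher in 6 libraries and lower in 6. Without adult control library 2 the difference was -0.172 (exact sign-flip permutation p = 0.515). This comparison depends on width, since shared peaks are wider. Counting midpoints the difference was -0.425 (exact sign-flip permutation p = 0.105), and requiring that at least 50% of the peak be covered it was -0.866 (exact sign-flip permutation p = 0.000977). It went the other way, to 2.29, with shared peaks in all 3 adult lists (exact sign-flip permutation p = 0.00146), to 2.45 with reference peaks above the median signal (exact sign-flip permutation p = 0.000488) and to 0.527 with H3K27me3 peaks above it (exact sign-flip permutation p = 0.0347). No direction therefore holds across these settings. Midpoints of shared peaks lay in H3K27me3 peaks in 3.21% of cases on average, below the 5.63% of the autosomes that these peaks covered (exact sign-flip permutation p = 0.00391). They were lower in 11 of 12 libraries, adult control library 2 being the exception at 7.90% against 5.48%. Midpoints of p20-only peaks (2.22% to 6.33%) and of all peaks in the reference list (1.83% to 5.74%) were likewise below the covered share in 11 of 12 libraries, so the shortfall was not particular to shared peaks.

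**Figure D4:**
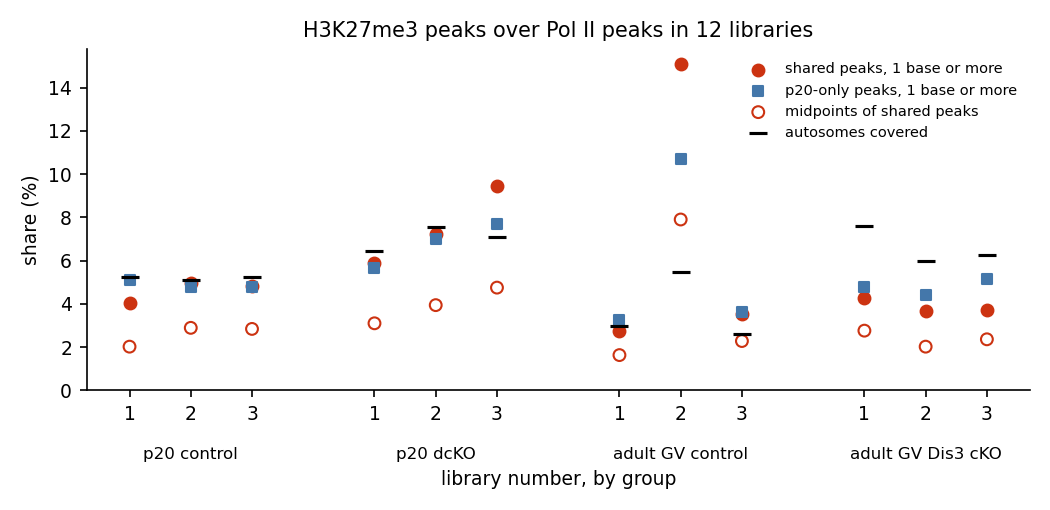
H3K27me3 peaks over Pol II peaks in each of 12 libraries: filled red points are shared peaks and blue squares p20-only peaks overlapped by 1 base or more, open points are midpoints of shared peaks inside an H3K27me3 peak, and black bars the percent of the autosomes covered. Adult control library 2 stands apart at 15.1%, and in the other 11 libraries the open points lie below the bars.

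The RNA libraries were checked on the targeted genes. Dis3 was lower in adult Dis3 cKO (0.677 to 3.30 CPM, counts scaled to the library total, median 1.81, n = 8) than in controls (8.81 to 21.8, median 15.6), with no overlap of the groups. Its log2 fold change was -3.13 (SE 0.33, edgeR adjusted p 2.5e-06). In p20 Exosc10 cKO, Exosc10 was at 0.352 to 10.6 CPM against 103 to 137 in controls (log2 fold change -5.22, SE 0.41, edgeR adjusted p 1.5e-11), and both genes were lower in dcKO. Gene counts per RiboMinus library ranged from 8492102 to 35429028. The 10 oocyte markers summed to 7480 to 13100 CPM in the 16 adult RiboMinus libraries, and the 4 blood markers to at most 0.0764. The 10 granulosa markers summed to 24.0 to 56.6 CPM in adult cKO and 32.9 to 64.0 in adult controls, with 0 of 8 tested called in that comparison. Of the 10 oocyte markers 5 were lower and 2 higher there, and of 2 theca and stroma markers tested 1, Star, was higher, at a sum of 1.06 to 6.51 against 0.638 to 3.44 CPM. In dcKO the granulosa markers were at 24.1 to 45.8 CPM against 55.7 to 69.0 in p20 controls, with 1 of 7 tested lower, and the 10 oocyte markers at 14900 to 17800 against 10400 to 14500, with 4 higher and 4 lower. In poly(A) libraries 2 of 8 granulosa markers tested were lower, at a sum of 29.1 to 141 CPM against 53.5 to 156, and theca and stroma markers reached 21.0 CPM against at most 3.77, with 1 of 2 tested higher. The endothelial marker tested was lower in dcKO (a sum of 26.4 to 46.2 against 47.5 to 73.7 CPM) and in poly(A) libraries (14.2 to 65.8 against 59.9 to 94.7). In poly(A) libraries 2 of 10 oocyte markers were lower. In p20 Exosc10 cKO 3 of 10 oocyte markers were lower, and the endothelial sum was 66.8 to 115 against 47.5 to 73.7 CPM with 0 of 1 tested called. In p20 Dis3 cKO 1 of 10 oocyte markers was lower, and 0 of 7 granulosa markers tested were called. The part of these markers in the results was not tested.

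Genes that held shared peaks were more often lower than higher in adult Dis3 cKO oocytes. Of 1190 such genes tested, 449 were called at an adjusted p under 0.05 by edgeR, 305 lower and 144 higher. Over all 15334 genes tested 28.1% were called, 12.4% lower and 15.7% higher, while of the genes with shared peaks 25.6% were lower and 12.1% higher. Their median log2 fold change was -0.074, against 0.026 over all genes. Of the genes with p20-only peaks and no shared peak 22.9% were lower and 10.7% higher, and a difference between the classes was not tested. The 170 genes with 5 or more shared peaks had 38.8% lower and 10.0% higher, with a median of -0.174. Levels and lengths were not matched between these classes.

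These adult calls rest on treating the 8 oocytes of a group as separate. The titles carry 2 tags per group. With counts summed per tag edgeR called 0 of 1246 genes with shared peaks (306 of them at an unadjusted p under 0.05) and 0.0% of all genes. Dis3 itself, the deleted gene, was therefore not called either, so a lost call there does not show that a gene is unchanged. With spike-in ERCC RNAs in place of the usual scaling the median of all genes moved to -0.52 and that of genes with shared peaks to -0.61. Then 673 genes with shared peaks were lower (56.6%) and 22 higher (1.85%), against 40.1% and 4.56% of all genes.

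The same side was seen in the other knockouts, with controls shared between the p20 comparisons. In p20 Dis3 cKO, edgeR called 110 of 1202 genes with shared peaks, 74 lower (6.16%) and 36 higher, against 7.37% of all genes called, 3.76% lower and 3.61% higher. In p20 Exosc10 cKO 122 were called, 95 lower (7.90%) and 27 higher, against 7.45% of all genes, 3.5% lower and 3.95% higher. In p20 dcKO 736 were called, 473 lower (39.4%) and 263 higher, against 53.7% and 27.1%. In poly(A) libraries of GV Dis3 cKO 284 of 1225 were called, 193 lower (15.8%) and 91 higher, against 21.9% and 8.33%. For genes with p20-only peaks and no shared peak the lower shares in these 4 comparisons were 4.38%, 6.40%, 39.8% and 16.0%, again untested against genes with shared peaks. Summed per title tag, 20 genes with shared peaks were called in p20 Dis3 cKO (10 lower), or 1.59% against 1.37% of all genes, and 17 in Exosc10 cKO (10 lower), or 1.35% against 0.832%. In dcKO 553 were called, with 29.7% lower against 15.7% of all genes. With ERCC scaling 7.74% were lower and 0.499% higher in p20 Dis3 cKO, against 5.31% and 0.781% of all genes. In Exosc10 cKO 1.5% were lower and 1.08% higher, against 0.944% and 1.35%. The shares in dcKO were 28.5% and 12.4%, against 20.4% and 17.8%, and in poly(A) GV 20.9% and 2.45%, against 13.3% and 7.27%. Genes were also divided by whether their shared peaks were found in the cKO lists, and the difference was not tested. In adult Dis3 cKO 23.8% of the 697 genes whose every shared peak was in 2 or 3 cKO lists were lower and 10.6% higher. Of the 244 genes with none so found, 61 were lower, a share close to that 23.8%, and 36 were higher (14.8%). Over all genes tested there, 12.4% were lower and 15.7% higher.

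**Figure D5:**
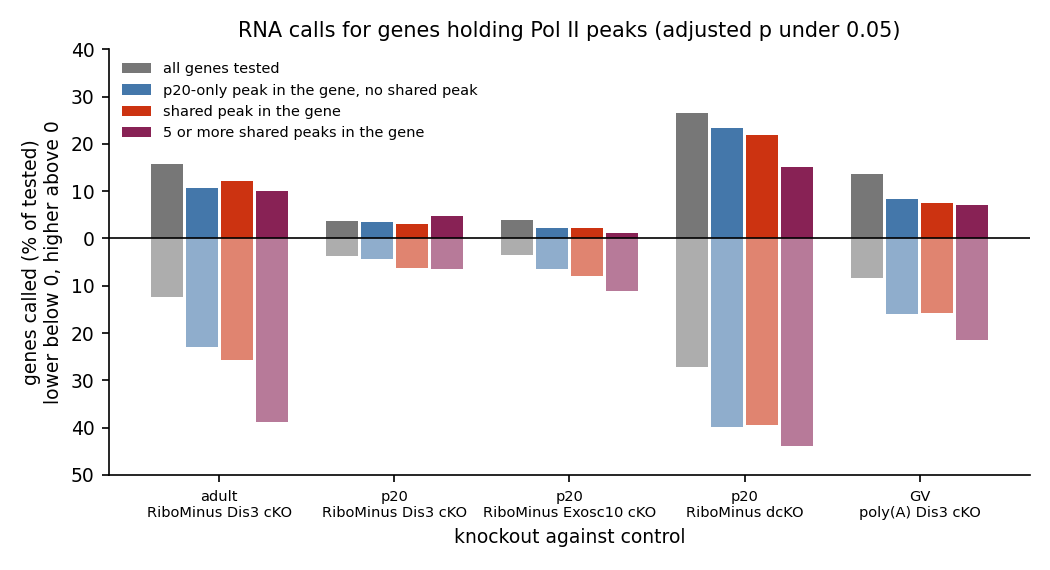
Percent of tested genes called higher (above 0) and lower (below 0) in each knockout against its control, edgeR adjusted p under 0.05, for all genes (grey), genes with p20-only peaks and no shared peak (blue), genes with a shared peak (red) and genes with 5 or more (purple). In adult Dis3 cKO 38.8% of the last class were lower, against 12.4% of all genes.

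Of the 17 oocyte genes with shared peaks, 13 were lower and 0 higher in adult Dis3 cKO RiboMinus libraries, where 12.4% of all genes were lower, with a median log2 fold change of -0.54. Summed per title tag, edgeR called 0.0% of all genes there, so every adult RiboMinus call in this paragraph was lost. Padi6 was at 580 to 833 CPM in cKO (median 683) and at 908 to 1280 in controls (median 1190), so the groups did not overlap. Its log2 fold change was -0.73 (SE 0.08, edgeR adjusted p 6.3e-06). Dnmt1 was at 895 to 3720 CPM in cKO (median 2780) and 4110 to 4930 in controls (median 4590). These groups too were apart, and the log2 fold change was -0.82 (SE 0.20, edgeR adjusted p 0.0054). Nlrp5 fell by 0.41 on the log2 scale, with groups at 542 to 691 and 654 to 946 CPM that overlapped at their edges (SE 0.08, edgeR adjusted p 0.0006). Zbed3, a maternal zinc finger protein, was at 9150 to 13500 CPM against 7320 to 11000 and did not pass the test (log2 fold change 0.23, SE 0.09, edgeR adjusted p 0.068). In poly(A) GV Dis3 cKO, Padi6 (-0.36, edgeR adjusted p 0.13), Nlrp5 (-0.26, edgeR adjusted p 0.22) and Zbed3 (-0.10, edgeR adjusted p 0.53) did not pass. Dnmt1 was lower there (-0.69, SE 0.17, edgeR adjusted p 0.0016).

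Values of the oocyte genes at p20 are given by genotype. Nlrp5 was at 1090 to 1710 CPM in Dis3 cKO and 990 to 1530 in controls (edgeR adjusted p 0.8). In Exosc10 cKO it was at 618 to 1230 CPM (log2 fold change -0.35, SE 0.13, edgeR adjusted p 0.088). In dcKO it was at 1270 to 2450 CPM, a rise of 0.67 on the log2 scale (SE 0.13, edgeR adjusted p 4.2e-05). Astl was at 73.1 to 289 CPM in Exosc10 cKO, 356 to 540 in dcKO and 216 to 347 in controls. It was lower in the former (log2 fold change -0.58, SE 0.18, edgeR adjusted p 0.038) and higher in the latter (0.51, SE 0.18, edgeR adjusted p 0.015). Both calls for Astl were lost when counts were summed per title tag (edgeR adjusted p 0.3 and 0.11). The differences between genotypes were not tested. Over the 17 oocyte genes, 3 were lower and 0 higher in p20 Dis3 cKO, 6 and 0 in Exosc10 cKO, 6 and 4 in dcKO, and 6 and 0 in poly(A) GV Dis3 cKO. The shares of all genes called in these comparisons were 7.37%, 7.45%, 53.7% and 21.9%, and the 10 of 17 in dcKO are near that background. The list was drawn up with earlier results of these data known.

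The 94 genes with a shared peak at the start site were a small set, of which 59 were tested in adult RiboMinus libraries. There edgeR called 23 of them (39.0%), 11 lower (18.6%) and 12 higher (20.3%), against 28.1%, 12.4% and 15.7% of all genes, with a median log2 fold change of -0.026. These calls too were lost with counts summed per title tag, where edgeR called 0.0% of all genes. Of those with a mean above 10 CPM, Il1r1 had the largest fall, from 58.4 to 138 CPM in controls (median 105) to 26.4 to 75.4 in cKO (median 52.5), and these groups overlapped. Its log2 fold change was -0.96 (SE 0.20, edgeR adjusted p 0.0017). Sin3a, the scaffold of a histone deacetylase complex, was at 522 to 857 CPM in cKO and 1040 to 1300 in controls, without overlap (log2 fold change -0.64, SE 0.09, edgeR adjusted p 3.5e-05). Tle6 was likewise apart, at 537 to 729 against 815 to 1150 CPM (-0.63, SE 0.07, edgeR adjusted p 6.6e-06). Cnpy2 had the largest rise of these, at 8.65 to 18.1 CPM in cKO against 7.44 to 14.4 (0.56, SE 0.16, edgeR adjusted p 0.016). In poly(A) GV Dis3 cKO, Tle6 did not pass (-0.51, SE 0.24, edgeR adjusted p 0.13). Il1r1 (-1.04, SE 0.28, edgeR adjusted p 0.0033) and Sin3a (-0.87, SE 0.11, edgeR adjusted p 8.1e-09) were lower there.

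In p20 libraries 61 of these start-site genes were tested. By edgeR, 5 were called in Dis3 cKO (3 lower) and 5 in Exosc10 cKO (3 lower), or 8.20% in each, near the 7.37% and 7.45% of all genes. In dcKO 28 were called (45.9%), below the 53.7% of all genes, with 6 lower (9.84% against 27.1%) and 22 higher. Summed per title tag, edgeR called 0 of 65 in Dis3 cKO, 0 in Exosc10 cKO and 18 in dcKO (8, 10 and 26 at an unadjusted p under 0.05). Of all genes 1.37%, 0.832% and 31.8% were so called. DESeq2 on single libraries called 6, 8 and 29, and its shares of all genes are not given here. The median in dcKO was 0.186, against -0.006 over all genes, and 36.1% were higher against 26.6% of all genes. Adra2b, an adrenergic receptor, had the largest rise of these in dcKO, at 5.93 to 24.7 CPM against 1.33 to 7.96 in controls, with some overlap (log2 fold change 1.89, SE 0.40, edgeR adjusted p 0.00014). Samm50, a protein of the mitochondrial outer membrane, was at 16.5 to 37.4 CPM against 10.5 to 13.7, with no overlap (1.13, SE 0.15, edgeR adjusted p 2e-07). Sp110, with 12 shared peaks, was higher in p20 Dis3 cKO, at 322 to 456 against 144 to 174 CPM (1.26, SE 0.21, edgeR adjusted p 4.7e-05), a call lost when counts were summed per title tag (1.25, edgeR adjusted p 0.15). In poly(A) GV Dis3 cKO it was at 52.1 to 159 CPM against 80.1 to 240 (-1.19, SE 0.16, edgeR adjusted p 8.6e-09). In those libraries 12 of 65 start-site genes were called (18.5%, against 21.9% of all genes), 5 lower and 7 higher.

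Myo10, the gene with the most shared peaks, was higher in one p20 knockout and lower in another. It was at 671 to 883 CPM in Dis3 cKO (median 803) and 147 to 632 in controls (median 295), so the groups did not overlap. The log2 fold change was 1.27 (SE 0.20, edgeR adjusted p 3.1e-05). In Exosc10 cKO it was at 97.9 to 192 CPM (median 124), overlapping the same controls (-1.33, SE 0.20, edgeR adjusted p 2.3e-05). Summed per title tag these changes were 1.27 and -1.34 and did not pass the test (edgeR adjusted p 0.13 and 0.12). Kpna2, a nuclear import receptor, was higher in both, at 47.9 to 58.7 and 47.2 to 83.1 CPM against 17.0 to 23.7 in controls. Its rise on the log2 scale was 1.37 with Dis3 deleted (SE 0.11, edgeR adjusted p 2.5e-11) and 1.49 with Exosc10 deleted (SE 0.11, edgeR adjusted p 1e-11). Pacsin2, a membrane-bending protein with 5 shared peaks, was lower in both kinds of GV library, at 150 to 208 against 437 to 488 CPM in RiboMinus data (-1.27, SE 0.06, edgeR adjusted p 1.8e-10). In poly(A) data it was at 46.2 to 94.1 against 157 to 251 CPM (-1.52, SE 0.13, edgeR adjusted p 3.6e-15), and the groups were apart in both. Its adult RiboMinus call was lost with counts summed per title tag, where edgeR called 0.0% of all genes.

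Among genes with a shared peak in the span, the largest changes in adult Dis3 cKO included another exosome gene. Exosc9, a core subunit of the complex with 1 shared peak, was at 3.07 to 14.7 CPM in cKO (median 7.65) and 20.8 to 42.8 in controls (median 34.5). The groups did not overlap, and the log2 fold change was -2.02 (SE 0.25, edgeR adjusted p 1.3e-05). Spock1, a secreted proteoglycan with 6 shared peaks, was at 5.82 to 37.0 CPM in cKO and 1.49 to 4.78 in controls (2.43, SE 0.41, edgeR adjusted p 0.00023). In poly(A) libraries it was at 12.5 to 60.8 against 4.31 to 6.29 CPM, again without overlap (2.47, SE 0.27, edgeR adjusted p 4.1e-11). The uncharacterised gene 4732416N19Rik was higher in both, at 28.0 to 128 against 5.79 to 8.82 CPM in RiboMinus and 59.3 to 334 against 14.5 to 26.1 in poly(A) libraries. Summed per title tag, the adult RiboMinus changes of Exosc9 and Spock1 kept their size (-2.11 and 2.30) and did not pass the test (edgeR adjusted p 0.12 and 0.18). The adult RiboMinus call of 4732416N19Rik was lost there too, as edgeR called 0.0% of all genes.

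At p20, Exoc2, a subunit of the exocyst that tethers secretory vesicles, was lower in both single knockouts, at 6.43 to 21.1 CPM in Dis3 cKO and 4.98 to 13.8 in Exosc10 cKO against 36.3 to 49.2 in controls. Its log2 fold changes were -1.82 and -2.37 (SE 0.20 in each, edgeR adjusted p 1.7e-08 and 7.2e-11). Prom1, a membrane glycoprotein with 7 shared peaks, was at 15.4 to 28.1 CPM in Exosc10 cKO and 49.1 to 73.5 in controls (-1.53, SE 0.14, edgeR adjusted p 3.8e-10). Gm30198 was at 0 in all 8 Dis3 cKO libraries and at 15.7 to 29.5 CPM in controls. Kmt2e, a chromatin regulator, was higher in Exosc10 cKO at 12.4 to 34.3 CPM and in dcKO at 27.1 to 55.6, against 3.83 to 11.5 in controls. Star, the somatic marker with a shared peak, was at 0.942 to 5.74 CPM in adult Dis3 cKO against 0 to 2.45 in controls (1.92, SE 0.59, edgeR adjusted p 0.02), overlapping at low levels. This adult call was lost with counts summed per title tag, where edgeR called 0.0% of all genes.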

How the data were processed

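The authors deposited 1 peak list per CUT&Tag library, with a total and a maximum signal per peak in the layout of SEACR, and the design text says that every library was first sampled to an equal number of reads with duplicates kept. The submitters' processing notes name the build mm10 and the tools cutadapt 2.5, STAR 2.7.2a, SAMtools 1.9, HTSeq 0.9.1 and SEACR, without their settings. Which peak threshold was used is not given in the sources used here. The authors deposited RNA data as whole-number counts per gene, and all sample files of the groups described were used. Peak signal served only to rank and filter peaks within a list.

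Overlaps of 1 base or more were computed in Python 3.11.15. Shares of shared peaks were compared over libraries with 2-sided exact permutation tests. Under R 4.3.3, gene counts went into the quasi-likelihood test of edgeR 4.0.16, with TMM scaling, filterByExpr and Benjamini-Hochberg adjustment at 0.05, and DESeq2 1.42.0 was an alternative. In the main setting the GV, cultured and metaphase II groups of the poly(A) data shared 1 estimate of the spread, as did the p20 RiboMinus groups. Standard errors were derived from each log2 fold change and its F statistic. Scripts were tested on simulated data. Gene IDs were matched through symbols to RefSeq GRCm38.p6 (92.0% of genes tested in adult RiboMinus libraries). Genes that overlap or have near-identical copies are uncertain, since the use of strand and of multiply aligned reads is not given in the sources used here.

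The 12 best-ranked shared peaks, the strongest 5 on each side of the threshold, up to 6 genes per list by rank, and the 5 largest rises and falls per comparison with a mean above 10 CPM in a group could be named. Reading genes with a shared peak anywhere in their span and testing midpoints against the covered autosomes were added after the data were seen. The regions and gene lists were chosen with earlier results of these data known. Start sites of 1 autosome were not analysed here. Some single genes that met these rules are not reported here.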

Additional observations from a re-analysis of the deposited data

Results flagged for a closer look

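Myo10 moved in opposite directions in the Dis3 cKO at the 2 ages. Every adult RiboMinus cKO library was below every control (log2 fold change -0.48), and every p20 cKO library was above every control (1.27). The difference between the ages was not tested.

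Of 229 groups of 4 to 10 libraries examined for the named genes, 15 had a library far from the others, where the 95% critical values used would by chance pick out about 1 in 20. In adult RiboMinus libraries, Cyp2c53-ps reached 9.75 CPM in 1 cKO library (next 4.22), Ccdc24 was at 24.7 CPM in 1 control (next 34.6), Cnpy2 at 8.65 in 1 cKO library (next 13.7), and Star at 2.45 in 1 control (next 0.895). In p20 controls, Pdia6 was at 115 CPM in 1 library (next 144), Kcnh1 at 489 (next 551) and Dnmt1 at 5760 (next 4900). In p20 Dis3 cKO, Dis3 was at 4.12 CPM in 1 library (next 2.37). In p20 Exosc10 cKO, Kpna2 was at 83.1 CPM in 1 library (next 63.3) and Ldlrad4 at 61.1 (next 44.1). In p20 dcKO, Ppp1r9a was at 5.63 CPM (next 2.53), Cdh23 at 6.18 (next 0.922) and Zbed3 at 6190 (next 7240). In poly(A) GV control 1, Sp110 was at 80.1 CPM (next 185) and Exosc10 at 49.1 (next 97.9).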

How the results depend on the processing

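Leaving out 1 library moved the H3K27me3 differences from -5.41 to 0.762 percentage points in adult Dis3 cKO, from 1.97 to 3.74 in p20 dcKO, from -1.47 to 4.70 between adult and p20 controls, from -0.172 to 0.355 between shared and p20-only peaks, and from -2.86 to -2.20 for midpoints, with turned signs only without adult control 2. Shared peaks exceeded p20-only peaks by 0.527 with H3K27me3 peaks above the median signal (exact permutation p 0.0347), 2.29 with a peak in all 3 adult lists (p 0.00146, exact permutation) and 2.45 with reference peaks above the median signal (p 0.000488, exact permutation), and by -0.425 and -0.866 counted by midpoint and by 50% coverage. Recovery in the cKO lists ranged from 66.2% to 80.1% without 1 cKO library. Paired by replicate number, the H3K27me3 differences stayed at -3.22, 2.93 and 2.51, with exact sign-flip p of at least 0.25, the smallest possible. In RNA the replicate block changed counts little at p20, to 111, 125 and 725 genes with shared peaks in the Dis3, Exosc10 and double knockouts. In poly(A) GV the count was 261. That fit held only GV libraries whose number is found in both groups, so the block was not the only change. Shares of all genes under the block are not given here. Same-numbered p20 libraries had correlations of their deviations from -0.316 to 0.378, so the numbers are not shown to pair them.

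Genes called with a shared peak in the gene, for adult, p20 Dis3, Exosc10, dcKO and poly(A) comparisons, came to 232, 55, 68, 357 and 144 with a peak in all 3 adult lists, where fewer genes were tested. Of all genes 28.1%, 7.37%, 7.45%, 53.7% and 21.9% were called. The shares in the smaller set are not given here, so its counts are not set against all genes. ERCC scaling gave 695 in adult (58.4%, against 44.6% of all genes) and 31 in Exosc10 cKO (2.58% against 2.29%). Sums per title tag gave 0, 20 and 17 in the first 3. These were 0.0%, 1.59% and 1.35%, against 0.0%, 1.37% and 0.832% of all genes. At start sites, sums per tag gave 0, 0, 0 and 18 in adult, p20 Dis3, Exosc10 and dcKO by edgeR. Of all genes 0.0%, 1.37%, 0.832% and 31.8% were so called. For the zeros, edgeR gave 16, 8 and 10 an unadjusted p under 0.05, and DESeq2 on single libraries called 26, 6 and 8. ERCC scaling gave 1 in Exosc10 cKO and 18 in dcKO, where 2.29% and 38.2% of all genes were called. DESeq2 gave 8 in Exosc10 cKO. A window of 1000 bases gave 8, 46 and 19 in Exosc10 cKO, dcKO and poly(A). A peak in all 3 adult lists gave 12, 2, 2 and 14. Numbers tested in these changed sets are not given here, so their counts are not set against all genes. With ERCC scaling, log2 fold changes in adult libraries turned to -0.17 for 2310033P09Rik, -0.09 for Icosl and -0.09 for Dph7. The cause was not tested. Of 585 settings for single named genes 505 kept direction and side of the threshold. Groups of 3 libraries limit the smallest p to 0.1.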
